A study of Sus scrofa with 2 samples.

Results

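Heat shock proteins and the DNAJ co-chaperones that work with them were followed in the hippocampus of Rongchang piglets (Sus scrofa) by RNA sequencing. The members were the genes whose symbol begins with HSPA, HSPB, HSPH, HSP90, DNAJA, DNAJB or DNAJC, together with HSPD1, HSPE1, HSF1, HSF2, BAG3, STIP1 and AHSA1. HSPA9 was left out by this rule. It took 57 of the 25322 gene IDs in the table of expressed genes. The study set 1 control sample against 1 sample of hippocampus from piglets given iron dextran, an iron and sugar polymer complex that is injected against iron deficiency. Both groups are labelled "wide type" for genotype, read here as wild type, and as piglets; the sources used here give no dose, age or count of animals. Each sample's label lists 2 names without saying what they were, and the table holds 1 column for each sample. There is therefore no spread between replicates, no test was made, and no difference below has a replicate check.

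Chaperones bind unfolded proteins and help them reach or keep their shape. HSP70 proteins (the HSPA family) do this in cycles of ATP use: J-domain proteins (DNAJ) bring them a substrate and start ATP hydrolysis, and nucleotide exchange factors such as the HSPH and BAG proteins release it. HSP90 proteins act later on signalling proteins, and small heat shock proteins (HSPB) hold unfolded proteins without using ATP. Separate sets serve the cytosol, the endoplasmic reticulum (ER) and the mitochondrion. Neurons, which do not divide, are known to depend on this system, and HSF1 is the transcription factor that raises many of these genes after heat or protein damage.

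None of the members measured differed by 1.5-fold between the samples. Levels are given as FPKM (fragments per kilobase of transcript, relative to all mapped fragments), which is scaled for length, so levels of different genes can be set side by side. Differences are the treated minus the control value of log2(FPKM + 1), over genes whose mean over both samples was 1 FPKM or more. The added 1 understates the change of low genes. Of the 57 members, 52 passed this limit, and 0 of 52 were at least 1.5-fold higher and 0 of 52 at least 1.5-fold lower. Of all 12557 genes measured, 2.47% were higher and 1.47% were lower by that much, and of the 8403 with a symbol, as all members have, 1.89% were past it either way. With the limit at a log2 difference of 0.32, 3 of 52 members were higher (HSPA4L, DNAJC18 and DNAJB1) and 1 of 52 was lower (DNAJB13). Of all genes 8.81% and 5.96% were, and of genes with a symbol 6.45% and 4.05%. Of the 52, 31 were above 0 and 21 below, where 49.0% of all genes and 48.4% of those with a symbol were above 0. The median difference of the members was 0.03, against -0.005 over all genes.

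Library composition touches each of these values. The columns summed to 924070 in the control sample and 850165 in the treated one, and the number of fragments sequenced is unknown. Scaled to the same total, the median of all genes moves from -0.005 to 0.10, and every value moves with it. Of the 52 members, 40 kept their sign as deposited under 4 other scalings (29 above 0 and 11 below), and 12 changed sign under at least 1 of them. Of these 12, 10 were below 0 as deposited and 2 above. Scaling to the same total raises every value, so it can only turn values below 0. A trimmed mean or centring on the median moves values only slightly. A kept sign above 0 is therefore mostly a matter of distance from 0, and the share of all genes that kept theirs was not computed. Neuronal markers, which define the tissue, were mostly high in both samples, with 8 of 10 in the table. Their summed level was 3696 FPKM in the control sample and 3565 FPKM in the treated one. Of the 8, 4 were above 0 and 4 below. CAMK2A was low, with 1.995 FPKM in the control sample and 3.934 FPKM in the treated one, a log2 difference of 0.72. Summed levels were 70.6 and 95.5 FPKM over 5 microglial markers, 9817 and 8628 over 7 oligodendrocyte markers, and 189 and 519 over 3 erythroid markers. No marker in the table was at 0, and fewer cells of a type cannot be told apart from less RNA per cell. The part of these shifts in the differences of the chaperone genes was not tested.

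**Figure D1:**
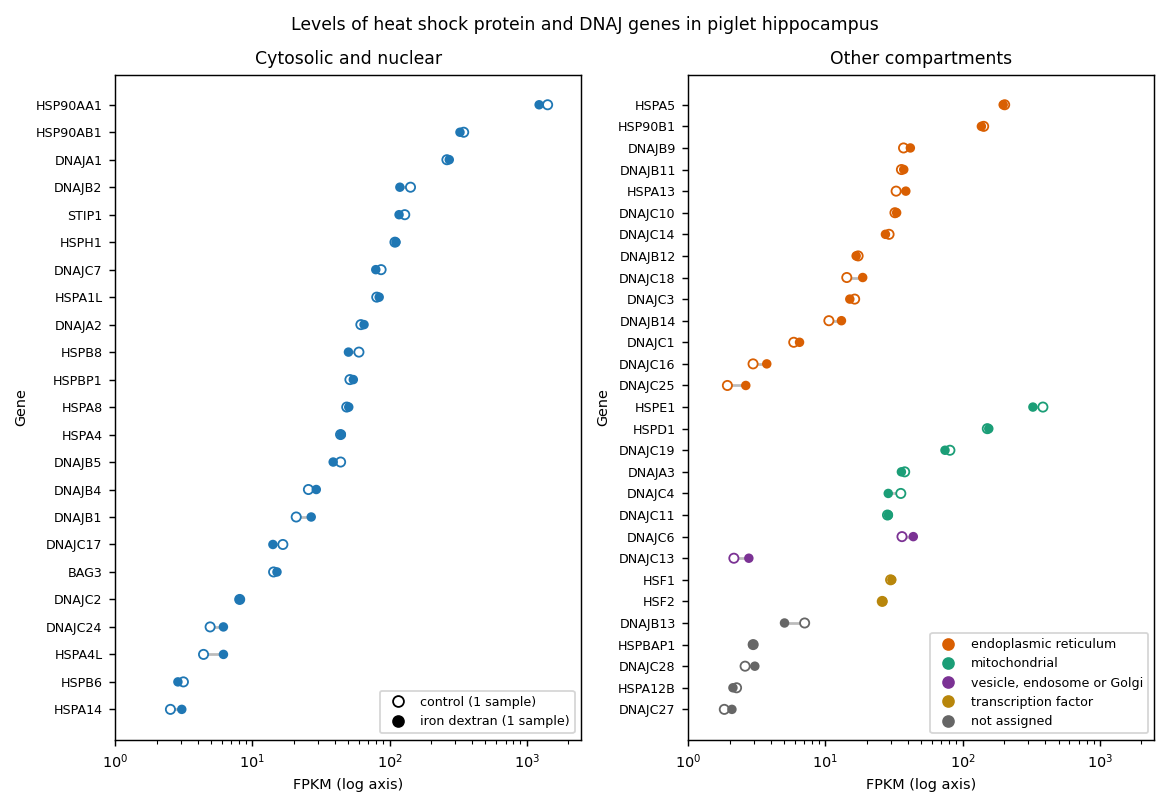
Levels of the 52 members measured, in FPKM on a log axis, with control as open and iron dextran as filled points, 1 sample each. The cytosolic genes stand on the left and the other compartments on the right, and the points of a gene lie close together over a range of levels from 1.95 (DNAJC27) to 1325 FPKM (HSP90AA1).

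The cytosolic HSP90 genes were among the 3 most abundant members, with HSP90AA1 first. HSP90AA1 (ENSSSCG00000002535), the stress-inducible alpha form, had 1419.6 FPKM in the control sample and 1231 FPKM in the treated one. It made up 32.3% of the summed FPKM of the members measured in the control sample and 29.96% in the treated one, and its log2 difference was -0.21. Of all genes measured, 30.6% differed by at least that much. The difference of HSP90AA1 was -0.09 with the same column total and -0.10 when centred within bins of expression. HSP90AB1 (ENSSSCG00000001701), the constitutive beta form, had 347 and 326 FPKM, a log2 difference of -0.09 that turned to 0.03 with the same column total and to 0.01 when centred within bins of expression. The ratio of the alpha to the beta transcript was 4.09 in the control sample and 3.78 in the treated one. Values of HSP90AA1 depend on how reads shared with near-identical gene copies were assigned, and are uncertain for that reason.

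The cofactors that serve HSP90 were present at unequal levels. STIP1 (ENSSSCG00000021620), which bridges HSP70 and HSP90 during client transfer, had 129 FPKM in the control sample and 117 FPKM in the treated one, a log2 difference of -0.14. DNAJC7, a J protein that binds both chaperones, had 86.7 and 79.3 FPKM, a log2 difference of -0.13. With the same column total the differences of STIP1 and DNAJC7 were -0.02 and -0.01. Centred within bins of expression they were -0.05 and -0.04. AHSA1, which stimulates the ATPase of HSP90, was low, with 0.622 FPKM in control and a listed 0 in iron dextran. An exact 0 in such a table can be a failed estimate, and AHSA1 was below the limit on level, so no fold is given.

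Of the cytosolic HSP70 genes, HSPA8 and HSPA1L differed little between the samples. HSPA8 (ENSSSCG00000015140), the constitutive HSC70 and a housekeeping chaperone, had 48.7 FPKM in the control sample and 50.4 FPKM in the treated one, a log2 difference of 0.05. HSPA1L (ENSSSCG00000030368) had 80.6 and 84.0 FPKM, a difference of 0.06. The gene named HSP70.2, which the rule does not take and for which RefSeq gives the synonyms HSPA1A and HSPA1B, had 0.665 and 0.773 FPKM. HSPA1L and HSP70.2 are next to each other in RefSeq's annotation of Sscrofa11.1, and their coding sequences are near copies, so the split of reads between these rows is uncertain. HSPA14, a ribosome-bound member, had 2.52 and 3.05 FPKM, a log2 difference of 0.20. HSPA12B, a distant relative found in endothelial cells, had 2.25 and 2.12 FPKM, and 4 endothelial markers summed to 25.5 and 23.0 FPKM, with none at 0.

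HSPA4L, a nucleotide exchange factor of the HSP110 group that acts on HSP70, had the highest difference of the members measured as deposited, but came behind DNAJB1 (0.37) and DNAJC18 (0.36) when centred within bins of expression. HSPA4L (ENSSSCG00000009077) had 4.40 FPKM in the control sample and 6.15 FPKM in the treated one, a ratio of FPKM values of 1.40. Its log2 difference was 0.40, and between 0.35 and 0.51 under the 4 other scalings. Of all genes measured, 9.12% differed by at least that much. Both other exchange factors of the group were far more abundant and closer to equal. HSPH1, HSP110 itself, had 109 and 111 FPKM (log2 difference 0.02). HSPA4 had 43.9 and 44.5 FPKM (0.02). Among exchange factors of other families, BAG3, which also couples HSP70 to autophagy, had 14.3 and 15.1 FPKM. HSPBP1, taken by the rule for the letters of its symbol although it is no small heat shock protein, had 51.4 and 54.4 FPKM.

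Of the small heat shock proteins, 3 had a row in the table. HSPB8 (ENSSSCG00000009844), which works with BAG3 in clearing misfolded proteins, had 59.8 FPKM in the control sample and 50.1 FPKM in the treated one, a log2 difference of -0.25. HSPB6, known from muscle, had 3.14 and 2.86 FPKM, a difference of -0.10. Both stayed below 0 under each of the 4 other scalings, but with the same column total HSPB6 was at -0.01 and HSPB8 at -0.13. HSPB9, known from testis, was listed at 0 in control and had 0.421 FPKM in iron dextran. HSPBAP1, a binding partner of HSPB1, is again a member by its letters and had 2.97 and 2.95 FPKM. HSPB1, HSPB3 and HSPB7 were not analysed here.

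Cytosolic J proteins of class A, which deliver substrates to HSP70, were abundant and near equal. DNAJA1 (ENSSSCG00000011000) had 262 FPKM in the control sample and 272 FPKM in the treated one, a log2 difference of 0.06, and was the most abundant J protein. DNAJA2 had 61.7 and 65.1 FPKM, a difference of 0.08. The ratio of DNAJA1 to HSPA8 was 5.37 in the control sample and 5.40 in the treated one. HSPA8 has near-identical copies in the genome, so its level and this ratio are uncertain.

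Class B was more mixed, with members on both sides of 0. DNAJB1 (ENSSSCG00000013784), the heat-inducible HSP40, had 20.9 FPKM in the control sample and 26.8 FPKM in the treated one, a ratio of 1.29 and a log2 difference of 0.35. Of all genes measured, 12.6% differed by at least that much. DNAJB4, a close relative, had 25.6 and 29.2 FPKM (0.18), while DNAJB5, another close relative, had 43.9 and 38.8 (-0.18). DNAJB2 (ENSSSCG00000016217), enriched in neurons and known to hand clients to the proteasome, had 142 and 119 FPKM, a log2 difference of -0.26. The signs of these 4 genes were the same under each of the other scalings.

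Class C members of the cytosol and nucleus have specialised roles and mostly low levels. DNAJC2, a ribosome-associated J protein, had 8.08 and 8.12 FPKM. DNAJC17, linked to splicing, had 16.7 and 14.1 FPKM, a log2 difference of -0.23. DNAJC24, needed for the diphthamide modification of a translation factor, had 4.92 and 6.14 FPKM (0.27). DNAJC9, a histone co-chaperone, was listed at 0 in both samples.

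Across the cytosolic and nuclear set, 14 of 23 members measured were above 0 and 9 below, with a median log2 difference of 0.02. The median was above 0 under each of the 4 other scalings, between 0.01 and 0.14. Their summed level was 2986 FPKM in the control sample and 2755 FPKM in the treated one, and HSP90AA1 alone carried most of that gap.

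In the ER, the abundant luminal chaperones were near equal, and several J proteins of the ER membrane had higher values in iron dextran. HSPA5 (ENSSSCG00000005601), the luminal HSP70 known as BiP and the usual marker of ER stress, had 202 FPKM in the control sample and 197 FPKM in the treated one, a log2 difference of -0.04. HSP90B1 (ENSSSCG00000000849), the luminal HSP90 known as GRP94, had 142 and 137 FPKM, a difference of -0.06. Both turned above 0 with the same column total (0.08 and 0.06) and when centred within bins of expression (0.07 and 0.03). The ratio of HSP90B1 to HSPA5 was 0.703 in the control sample and 0.694 in the treated one. HSPA13, a small HSP70 relative of microsomes, had 32.7 and 38.5 FPKM (0.23).

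Among luminal J proteins, DNAJB9, an ER stress target that helps degrade misfolded proteins, had 37.1 FPKM in the control sample and 41.6 FPKM in the treated one (log2 difference 0.16). DNAJB11, a partner of HSPA5 in folding, had 35.8 and 37.2 FPKM (0.06). DNAJC10, a disulphide reductase, had 32.1 and 33.0 FPKM (0.04). The values of these 3 genes lay above 0 in every scaling tried. DNAJC3, which also inhibits the ER stress kinase PERK, had 16.3 and 15.0 FPKM, a difference of -0.11 that became 0.003 with the same column total.

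The J proteins anchored in the ER membrane were lower in level and further apart. DNAJC18 (ENSSSCG00000014356) had 14.3 FPKM in the control sample and 18.7 FPKM in the treated one, a ratio of 1.31 and a log2 difference of 0.36. Of all genes measured, 11.6% differed by at least that much. DNAJB14, which presents its J domain to the cytosol for the degradation of membrane proteins, had 10.6 and 13.1 FPKM (0.28). Its paralog DNAJB12, with the same role, had 17.3 and 16.7 FPKM (-0.04). DNAJC25 had 1.93 and 2.62 FPKM, a ratio of 1.36 and a log2 difference of 0.31. DNAJC16 had 2.97 and 3.73 FPKM (0.26). DNAJC1, which binds HSPA5 and the ribosome, had 5.87 and 6.47 FPKM (0.12), and DNAJC14 had 29.1 and 27.4 (-0.08). DNAJC22 was listed at 0 in control and had 0.119 FPKM in iron dextran.

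Of the 14 ER members measured, 9 were above 0 and 5 below, where 49.0% of all genes were above 0. Their median log2 difference was 0.09. Over those with a mean FPKM of at least 5 the median was 0.05. All 14 were above 0 with the same column total, but so were 9045 of all 12557 genes measured, with a median of 0.10. The 7 luminal members had a median of 0.04 and the 7 membrane J proteins one of 0.26, a division made after the values had been seen. The membrane group also had the lower levels, with a median mean FPKM of 11.8 against 36.5, and low genes as a whole had higher differences. After centring by expression bin the 2 medians were 0.08 and 0.19. Summed ER levels were 581 FPKM in the control sample and 588 FPKM in the treated one.

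**Figure D2:**
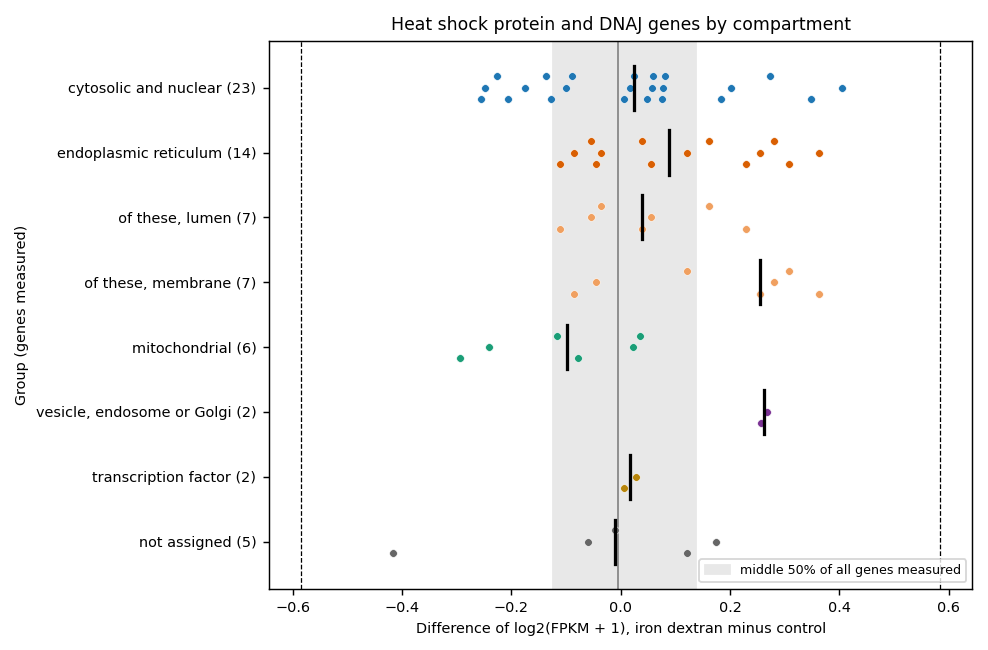
Treated minus control value of log2(FPKM + 1) for each member measured, by compartment. Black bars are medians, the grey band is the middle 50% of all genes measured, the grey line their median and the dashed lines 1.5-fold; no point reaches a dashed line. The mitochondrial median, -0.10 here, is 0.02 with the same column total.

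Mitochondrial members measured were few, and their median lay below 0 as deposited and above it with the same column total. HSPD1 (ENSSSCG00000016077), the chaperonin HSP60, had 151 FPKM in the control sample and 155 FPKM in the treated one, a log2 difference of 0.04. HSPE1 (ENSSSCG00000016078), the HSP10 lid of the same chamber, had 385 and 325 FPKM, a difference of -0.24. Of all genes measured, 24.5% differed by at least as much as HSPE1. The genes are next to each other in RefSeq's annotation of Sscrofa11.1 and are known to share a promoter. The ratio of HSPE1 to HSPD1 was 2.54 in the control sample and 2.098 in the treated one.

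The mitochondrial J proteins were at intermediate levels. DNAJC19, which drives protein import at the inner membrane, had 80.7 FPKM in the control sample and 74.4 FPKM in the treated one, a log2 difference of -0.12 that became 0.001 with the same column total. DNAJA3, a matrix J protein, had 37.8 and 35.8 FPKM (-0.08, and 0.04 with the same column total). DNAJC11, linked to the organisation of cristae, had 28.3 and 28.8 FPKM (0.02). DNAJC4 (ENSSSCG00000013038), a membrane-anchored J protein, had 35.4 and 28.7 FPKM and the lowest difference of the mitochondrial members, -0.29. It stayed below 0 under each of the other scalings.

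Of the 6 mitochondrial members, 2 were above 0 and 4 below, with a median of -0.10. This median became 0.02 once both columns had an equal sum, and -0.03 when centred within bins of expression. Their summed level was 718 FPKM in the control sample and 648 FPKM in the treated one. Side by side, the medians of the 3 compartments were 0.02 (cytosolic and nuclear), 0.09 (ER) and -0.10 (mitochondrial) as deposited. Centred within bins of expression they were 0.07, 0.10 and -0.03, and with the same column total 0.14, 0.20 and 0.02. The compartments also differed in level, with a median mean FPKM of 49.5, 22.6 and 57.2. The ranges of the 3 compartments as deposited overlapped only in part, from -0.26 to 0.40, from -0.11 to 0.36 and from -0.29 to 0.04. The highest mitochondrial value, 0.04, lay below the ER median of 0.09. With 1 sample per group the differences between compartments were not tested.

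J proteins of the vesicle cycle had values above 0. DNAJC6 (ENSSSCG00000003807), the neuronal auxilin that recruits HSPA8 to uncoat clathrin vesicles, had 36.1 FPKM in the control sample and 43.7 FPKM in the treated one, a ratio of 1.21 and a log2 difference of 0.27. DNAJC13, which acts on endosomes, had 2.15 and 2.76 FPKM (0.26). Both stayed above 0 under each of the other scalings. DNAJC5B, a relative of the synaptic vesicle protein DNAJC5, had 0.704 and 1.16 FPKM, below the limit on level. DNAJC5 itself was not analysed here.

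DNAJB13 had the lowest difference of all members measured, as deposited and under each of the 4 other scalings. This J protein is a part of the radial spokes of motile cilia and sperm tails. DNAJB13 (ENSSSCG00000014832) had 7.05 FPKM in the control sample and 5.03 FPKM in the treated one, a ratio of 0.713 and a log2 difference of -0.42. Of all genes measured, 8.49% differed by at least that much. Markers of ependymal cells, which line the ventricles and bear motile cilia, were divided by level: 6 of 8 were in the table, and the 3 measured were below 0, with a summed level of 17.1 FPKM in the control sample and 13.0 FPKM in the treated one. FOXJ1, the factor that defines ciliated cells, had 8.89 and 6.14 FPKM, and no ependymal marker in the table was at 0. Of the 3 below the limit on level, CCDC39 (0.342 and 0.485 FPKM) and CCDC40 (0.424 and 0.629) were above 0, and SPAG6 (0.856 and 0.552) was below. The part of these cells in the value of DNAJB13 was not tested.

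The transcription factors of the heat shock response were equal within a few percent. HSF1 (ENSSSCG00000005917) had 29.8 FPKM in the control sample and 30.4 FPKM in the treated one, a log2 difference of 0.03. HSF2 (ENSSSCG00000004238) had 25.9 and 26.1 FPKM, a difference of 0.01. Their transcript levels carry no measure of HSF1 activity, which is set by trimer formation and modification of the protein. On a list of 18 genes known to be raised by HSF1, 12 were measured, with 8 above 0 and 4 below and a median of 0.03, where 49.0% of all genes were above 0. Of these 12, 2 (HSPA4L and DNAJB1) were past a difference of 0.32, as were 8.81% of all genes. HSP90AA1, HSPB8, HSPE1 and STIP1 were the 4 below 0. This list shares 11 of its measured genes with the members. Its genes HSPA1A, HSPA1B, HSPA6, HSPB1 and CRYAB were not analysed here under those symbols, and AHSA1 was below the limit on level. The 12 measured therefore do not stand for the whole list.

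**Figure D3:**
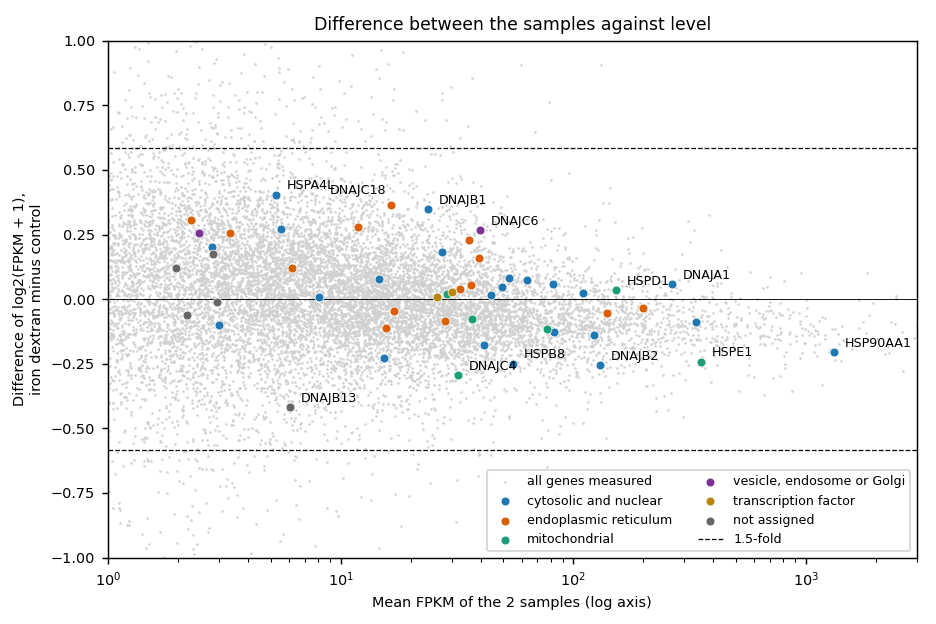
Treated minus control value of log2(FPKM + 1) against the mean FPKM of the 2 samples on a log axis, for all genes measured (grey) and the members (coloured by compartment). Dashed lines mark 1.5-fold, and 167 of 12557 genes lie outside the axes; members of low level lie mostly above 0 and those of high level mostly below, as do all genes; with the same column total, 6 of the 10 members and 593 of the 979 genes at 100 FPKM or more lie above 0.

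Level and difference varied together in the members and in the whole table. Of the 14 members with a mean of 1 to 10 FPKM, 10 were above 0, with a median of 0.15, against a median of 0.05 over the 6366 genes in that range. Of the 22 members with 10 to 50 FPKM the median was 0.03, against -0.02 over 4347 genes. Of the 10 members at 100 FPKM or more, 3 were above 0, with a median of -0.07, against -0.10 over 979 genes. With the same column total these 2 medians were 0.05 and 0.02. Across the 52 members, Pearson's r between log2 mean FPKM and the difference was -0.41 and Spearman's rho -0.42. Across all genes they were -0.11 and -0.23. These points share the same 2 libraries, and genes are not independent replicates.

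Of the chaperone systems outside the rule, TRiC and prefoldin were close to equal, and single genes of the other lists lay further apart. The 7 subunits measured of the cytosolic chaperonin TRiC, which folds actin and tubulin, had a median of -0.09, with 2 above 0. This became 0.03 with the same column total and 0.01 when centred within bins of expression, and none was past 1.5-fold. CCT4 was at 136 and 125 FPKM, the lowest difference among them (-0.11). The 3 prefoldin subunits measured had a median of -0.09 (0.03 with the same column total), with PFDN5 at 19.6 and 17.0 FPKM.

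Of the 14 other cofactors of HSP70 and HSP90 measured, 1 was at least 1.5-fold higher and 0 lower, against 2.47% and 1.47% of all genes. This was FKBP5, which works with HSP90 on the glucocorticoid receptor and is a known glucocorticoid target. It had 3.24 FPKM in the control sample and 8.26 FPKM in the treated one, a log2 difference of 1.13. Of all genes measured, 0.90% differed by at least that much. The median of the 14 was -0.06, and 0.05 with the same column total. The related immunophilin FKBP4 had 145 and 127 FPKM (-0.19). The ubiquitin ligase STUB1, which marks HSP70 clients for degradation, had 172 and 152 FPKM (-0.18), and NUDC had 175 and 156 (-0.17).

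The other folding factors of the ER, such as lectins and disulphide isomerases, had a median of -0.13 over 11 measured genes, with 2 above 0. At the same column total it was -0.01, and -0.03 after centring by expression bin. SIL1, the exchange factor of HSPA5, had 13.4 FPKM in the control sample and 10.1 FPKM in the treated one (-0.38), and the disulphide isomerase PDIA6 had 128 and 106 (-0.28). CRELD2, an ER stress target, had 11.6 and 10.04 FPKM (-0.19). Of the regulators and targets of the unfolded protein response, 5 of 14 were measured, with 3 above 0 and a median of 0.18. This median was 0.13 when centred within bins of expression and 0.26 with the same column total. The 3 above 0 were low in level, where all genes had higher differences. The sensor ATF6 had 1.73 and 2.52 FPKM (0.37), the kinase EIF2AK3 3.82 and 4.48 (0.18), SEL1L 2.01 and 2.40 (0.18), and XBP1 119 and 114 (-0.05). The 6 other mitochondrial chaperones and proteases measured had a median of -0.01 (0.11 with the same column total). CLPX, an unfoldase of the matrix, had 17.9 and 22.4 FPKM (0.31), and the inner membrane protease SPG7 had 37.4 and 40.5 (0.11). TIMM44, of the import motor, had 22.8 and 21.7 FPKM (-0.07).

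**Figure D4:**
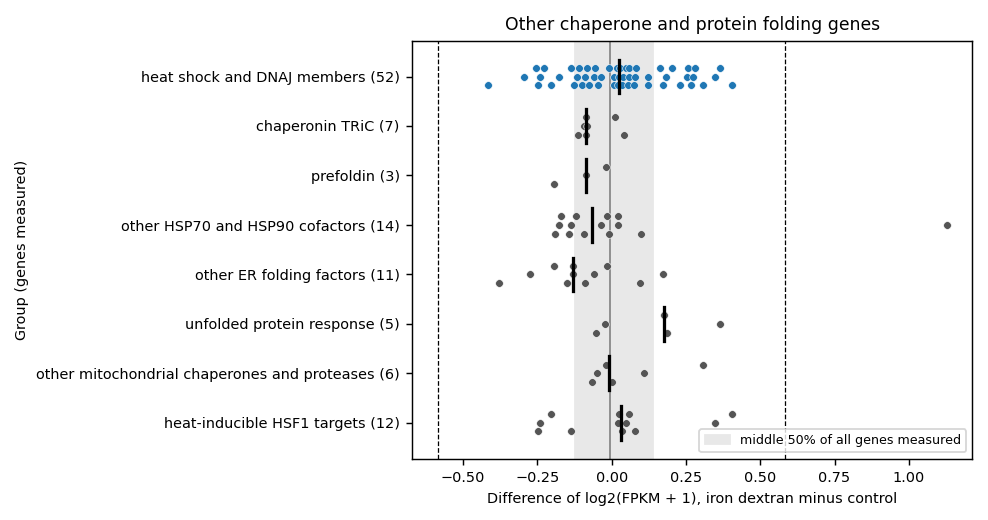
Treated minus control value of log2(FPKM + 1) for the members and for 7 other lists of chaperone and protein folding genes. Black bars are medians and the grey band is the middle 50% of all genes measured; the point past the dashed line of 1.5-fold is FKBP5. Once both columns have an equal sum, the medians of the TRiC, prefoldin, cofactor and mitochondrial lists, below 0 here, lie above 0.

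The remaining members have no compartment assigned. DNAJC27, which carries a small GTPase domain, had 1.83 FPKM in the control sample and 2.08 FPKM in the treated one. DNAJC28 had 2.59 and 3.05 FPKM. Besides those already named, HSPA6, HSPA12A, DNAJA4, DNAJB6, DNAJC8, DNAJC12, DNAJC15 and DNAJC30 were not analysed here.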

How the data were processed

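RNA was measured in 1 control and 1 iron dextran sample of hippocampus. The authors deposited 1 table of FPKM values with a row per Ensembl pig gene ID. Its columns were assigned by the letter each shares with a sample title. Per the submitters' processing notes, cutadapt 1.2.1 and TopHat and the builds Sscrofa10.2 and susScr3 were used. Which program computed FPKM, its annotation and whether strand was used is not given in the sources used here. Such values depend on the library total and on how reads of similar genes are assigned.

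Symbols were paired with 11804 of 25322 IDs from a table of names; 12 symbols that the rule takes had no row and were not analysed here. Differences of log2(FPKM + 1) were computed in Python 3.11.15 with numpy 2.4.6 and pandas 2.3.3, over genes averaging 1 FPKM or more. A check on simulated columns of unequal scale required recovery only under the trimmed mean, median and bin scalings described below. It set no requirement for the differences as deposited or for the same total, and its number of fragments per FPKM was assumed. No test was made. Among 690 genes under 0.1 FPKM in control, the steps between low values gave a relative depth of 1.06 for iron dextran; absolute depth is unknown, so no counting interval is given. Every member may be named; of each other chaperone list, up to 4 genes with the largest difference and any past 1.5-fold. Compartments come from textbook knowledge. Alternatives were pseudocounts of 0.1 and 0.01, no filter, a mean FPKM of 5 or more, limits of 0.32 and 1 on the log2 scale, and 4 scalings: the same total, a trimmed mean of M values (30% and 5% trimmed per side), centring on the median, and centring within 20 expression bins. The members and lists were chosen with earlier results of these data known. The sets by level, the division of the ER members and the ratios between members were chosen after values were seen. Gene order came from RefSeq's Sscrofa11.1 annotation, a build other than the files' own, so no coordinates are given.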

Additional observations from a re-analysis of the deposited data

How the results depend on the processing

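The counts of members at least 1.5-fold higher or lower were 0 and 0. They were the same with pseudocounts of 0.1 and 0.01 and under the 4 other scalings. They were also 0 with a mean FPKM of at least 5, at a limit of 2-fold and without the symbols that share only the letters of a prefix. These last settings only drop members or raise the limit, so their counts of 0 were fixed in advance. With no filter on low values 1 member was lower, AHSA1, which was listed at 0 in iron dextran. With the limit at a log2 difference of 0.32, 3 were higher and 1 was lower. With columns scaled to the same total, the medians were 0.14 for all members, 0.14 for the cytosolic and nuclear, 0.20 for the ER and 0.0204 for the mitochondrial members, the last with its direction reversed. This scaling raises every value by construction, and the median of all genes became 0.10. Leaving out HSP90AA1, HSPA1L and HSPA8, an alternative chosen after seeing the data, changed no direction. With a mean FPKM of at least 5 the ER median was 0.047, and after centring by bins of expression the mitochondrial one was -0.03 and that of all members 0.07. The unknown depth limits what can be said of members under 1 FPKM. No paired analysis was possible because each group is 1 sample.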

Other observations

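Levels of the members spanned a wide range in this tissue, with a mean of 1325 FPKM for HSP90AA1, 678 times that of DNAJC27 (1.95 FPKM). Cytosolic and nuclear genes carried 67.9% of the summed FPKM of the members measured in control and 67.0% in iron dextran, ER genes 13.2% and 14.3%, and mitochondrial genes 16.3% and 15.8%. All 57 members together made up 0.476% of the total FPKM of the control table and 0.484% of that of iron dextran.

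The ratio of the inducible J protein DNAJB1 to DNAJA1 was 0.0797 in control and 0.0985 in iron dextran. That of DNAJA1 to DNAJA2 was 4.24 and 4.18. In the ER, the ratio of HSPA5 to its J protein DNAJB11 was 5.66 and 5.31. These ratios were chosen after the values had been seen and have no replicate check.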
